A study of Rattus norvegicus with 9 samples.

Results

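Organic ion and carnitine transporters are the membrane proteins of the Slc22a, Slco, Slc10a and Slc47a families, and their messenger RNA was followed here in regenerating rat liver. The members were every gene whose platform symbol belongs to 1 of those 4 families, with the bile salt uptake carrier Slc10a1 set aside as a partner gene. The rule gave 38 genes of the 18166 named by a probe set with a single gene symbol, and 29 of the 38 passed the filter on dim probe sets that 15793 genes passed in all.

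Slc22a carriers move small charged molecules, among them carnitine, organic cations such as drugs and amines, and organic anions such as urate and conjugated metabolites. Slco genes encode the organic anion transporting polypeptides (OATPs), which bring bile acids, hormones, prostaglandins and many drugs into cells, and in liver they act together with the Slc10a bile salt carriers. Slc47a genes encode multidrug and toxin extrusion proteins (MATEs), which exchange organic cations for protons. Carnitine carries long-chain fatty acids into mitochondria, so its uptake, its synthesis and the carnitine acyltransferases serve fatty acid oxidation.

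All animals were female F344 rats given retrorsine, an alkaloid that blocks hepatocyte division, in 2 intraperitoneal doses of 30 mg/kg with 2 weeks between them. Partial hepatectomy followed 4 weeks after the last dose, and the liver then regrew from small hepatocyte-like progenitor cells (SHPCs), which form clusters. Whole-transcript arrays were made from laser-captured parts of 7 µm frozen sections, with 3 arrays for each of 3 groups. These were SHPC clusters of untransplanted livers, SHPC clusters of livers given sorted Thy1+ cells, and hepatocytes bordering SHPC clusters in untransplanted livers. Donor cells came from DPPIV+ rats, entered through the spleen and went to DPPIV− recipients. The hepatocyte control had therefore also been through retrorsine and hepatectomy, and it was no normal liver. No group held hepatocytes of transplanted livers. In SHPCs of transplanted livers against hepatocytes, cell type and transplantation change together and cannot be told apart. The description label of the hepatocyte arrays speaks of SHPCs with transplantation, and the titles and the cell type label were followed instead. Clusters were picked by their look under the microscope, and how many animals they came from is not given in the sources used here. The p-values measure only the spread between arrays, which may be technical, and they come out too small where 1 animal gave several arrays.

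Values are the log2 of the deposited intensity, so a difference of 1 is a doubling. The arrays numbered 2 of the SHPCs and of the hepatocytes differed from the remaining 7, with median intensities of 24.1 and 23.0 on the linear scale against 19.6 to 20.6. Markers of hepatocytes were bright everywhere: albumin (Alb) averaged 13.6 in hepatocytes, 13.6 in SHPCs without transplantation and 13.7 with it. Of the 6 hepatocyte markers measured, 5 had positive changes against hepatocytes and 1, Cyp2e1, a negative one, both with and without transplantation. The Cyp2e1 change was −0.65 (limma adjusted p = 0.167) with transplantation and −0.64 (adjusted p = 0.579) without it, with no overlap. Tat had a change of 0.68 (adjusted p = 0.469) without transplantation, also with no overlap. Limma called 0 of the 6, and equal hepatocyte content was not tested. The summed linear level of 6 Kupffer cell markers was 1067 to 1495 in hepatocytes, 889 to 1336 in SHPCs and 1623 to 2105 in SHPCs of transplanted livers. The sum of 6 stellate cell markers was 598 to 891, 492 to 728 and 775 to 940 in the same order, that of the 2 measured of 6 endothelial markers 343 to 449, 285 to 406 and 395 to 492, and that of 6 cholangiocyte markers 116 to 134, 136 to 146 and 147 to 171. All 6 Kupffer markers had positive changes on the transplanted arrays against both other groups, and 1, Marco, passed against hepatocytes (0.80, adjusted p = 0.0456). Sums of T and NK cell, B cell and neutrophil markers lay between 53.9 and 87.9 on every array, with Cd3d and S100a8 dim, and Thy1 lay between 36.5 and 41.1. In these mixed captures, fewer cells of a type and less RNA per cell cannot be told apart.

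The carnitine transporter Slc22a5 was the member that passed the test, and its promoter is shown with those of Cpt1a and Crat, the carnitine acyltransferase genes that passed in the same comparison. The sequences are the 250 bases before each gene's start, 5′ to 3′ on the gene's own strand, from RefSeq on GRCr8, which may not be the build of the array design. The Slc22a5 window lies at chr10:38536073-38536322 on the minus strand, Cpt1a at chr1:209995910-209996159 on the plus strand and Crat at chr3:34087100-34087349 on the minus strand. Capitals mark the GC box GGGCGG, which reads CCGCCC where it lies on the other strand.

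Slc22a5: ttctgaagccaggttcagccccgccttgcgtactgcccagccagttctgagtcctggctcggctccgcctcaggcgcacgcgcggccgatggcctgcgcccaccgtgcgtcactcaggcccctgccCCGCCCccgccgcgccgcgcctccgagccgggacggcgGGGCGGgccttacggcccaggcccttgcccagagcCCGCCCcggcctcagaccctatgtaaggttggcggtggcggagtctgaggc
Cpt1a: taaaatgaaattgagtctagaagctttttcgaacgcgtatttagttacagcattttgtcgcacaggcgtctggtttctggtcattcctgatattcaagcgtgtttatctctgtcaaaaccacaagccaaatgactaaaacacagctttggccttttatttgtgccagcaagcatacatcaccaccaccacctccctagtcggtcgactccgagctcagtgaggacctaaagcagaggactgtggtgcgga
Crat: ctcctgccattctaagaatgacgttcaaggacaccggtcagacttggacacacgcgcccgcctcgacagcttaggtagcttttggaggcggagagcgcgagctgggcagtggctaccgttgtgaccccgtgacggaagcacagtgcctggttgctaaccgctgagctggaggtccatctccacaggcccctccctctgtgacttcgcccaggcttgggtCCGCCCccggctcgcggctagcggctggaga

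The Slc22a5 window held 28 CpG dinucleotides at 74.4% G and C, and 6.79% of 33469 rat promoters of this length held at least as many. Cpt1a had 10 CpG at 45.6% and Crat 19 at 63.6%, against a median of 5 CpG and 51.2% over all promoters. GGGCGG occurred 3 times before Slc22a5, 1 time before Crat and 0 times before Cpt1a, and 30.5% of all promoters held it on at least 1 strand. TATAAA was in 0 of the 3 and in 12.9% of all. Of the 38 members, 32 had a promoter in RefSeq's table: 9 of these held GGGCGG and 4 held TATAAA. A match describes the letters of the window and says nothing of a factor at work there.

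Slc22a5 encodes OCTN2, the sodium-dependent carrier that takes carnitine into cells. Its log2 level was 8.31, 7.93 and 8.20 on the hepatocyte arrays, 7.44, 7.65 and 8.03 on the SHPC arrays, and 6.33, 6.41 and 6.03 on the SHPC arrays of transplanted livers. The 3 transplanted arrays lay below all 6 others, while the hepatocyte and SHPC arrays overlapped. Slc22a5 fell in SHPCs of transplanted livers against hepatocytes by 1.89 on the log2 scale (SE 0.19, 3 arrays each, limma adjusted p = 0.00295), a 3.71-fold difference. Against SHPCs without transplantation the change was −1.45 (SE 0.19), or 2.74-fold, and it did not pass over all genes (adjusted p = 0.0609). It stood 4th by unadjusted p of 15793 genes in that comparison. SHPCs and hepatocytes differed by −0.44 (unadjusted p = 0.0401, adjusted p = 1.00). Without SHPC array 2 and hepatocyte array 2 the change was −1.999 against hepatocytes (adjusted p = 0.00282) and −1.48 against SHPCs (adjusted p = 0.0480), which passed, in fits that called 3.64% and 0.146% of all tested genes. Left out alone, SHPC array 1 also brought the second of these past the threshold (−1.59, adjusted p = 0.0240).

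**Figure D1:**
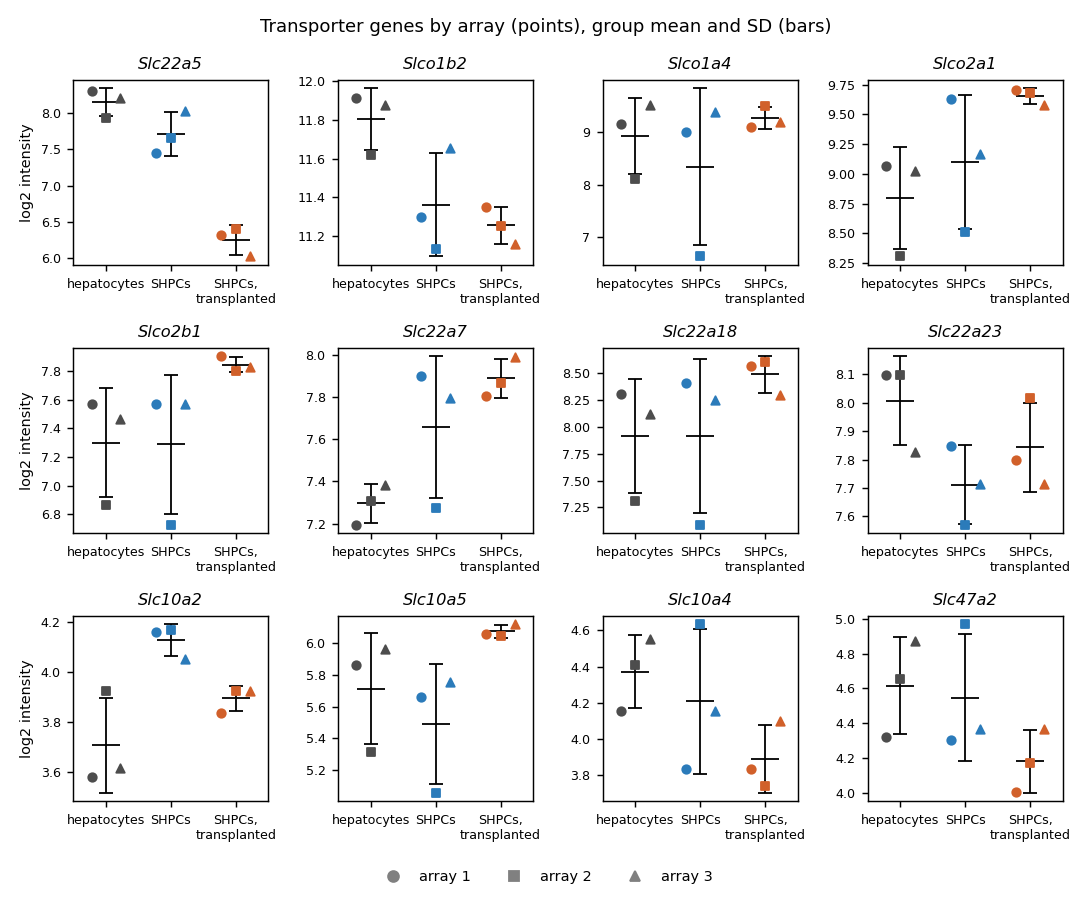
Log2 intensity (y axis, with its own range in each panel) of 12 transporter genes in the hepatocyte, SHPC and transplanted SHPC groups; points are single arrays with a symbol for the array number, the long bar is the group mean and the whiskers the SD. Slc22a5 lies between 6.03 and 6.41 on the transplanted arrays and between 7.44 and 8.31 on the others, and Slco1a4, Slco2a1, Slco2b1 and Slc22a18 are lowest on the arrays numbered 2 within hepatocytes and SHPCs.

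Of the 29 tested members, 1 was called lower and 0 higher in SHPCs of transplanted livers against hepatocytes, a comparison in which 1.18% of all tested genes were called and 0.317% were called lower. The members' log2 changes were negative for 15 and positive for 14, with a median of −0.03 against −0.00 over all tested genes. At an unadjusted p under 0.05, 2 members were higher and 3 lower, or 17.2% of the members, while of all tested genes 10.4% passed so (7.07% higher, 3.32% lower). In 7 members the 3 arrays of 1 group lay entirely above those of the other (24.1%, 19.2% of all tested genes).

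Against SHPCs without transplantation, limma called 0 of 29 members, where 0.00633% of all tested genes were called. The count at an unadjusted p under 0.05 was 1 higher and 1 lower, or 6.90% of the members, while 7.35% of all tested genes passed so (5.07% higher, 2.29% lower), and the groups did not overlap for 4 members (13.8%, 15.8% of all tested genes). The median change was −0.06, against 0.02 over all tested genes. Between SHPCs and hepatocytes 0 of 29 were called, where 0.0633% of all tested genes were, with 1 higher and 2 lower at an unadjusted p under 0.05, or 10.3% of the members, while 4.12% of all tested genes passed so (2.31% higher, 1.81% lower). The groups lay apart for 1 member (3.45%, 5.22% of all tested genes), and the median change was −0.01, as over all tested genes. The 3 comparisons share arrays pairwise and are not independent of each other.

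**Figure D2:**
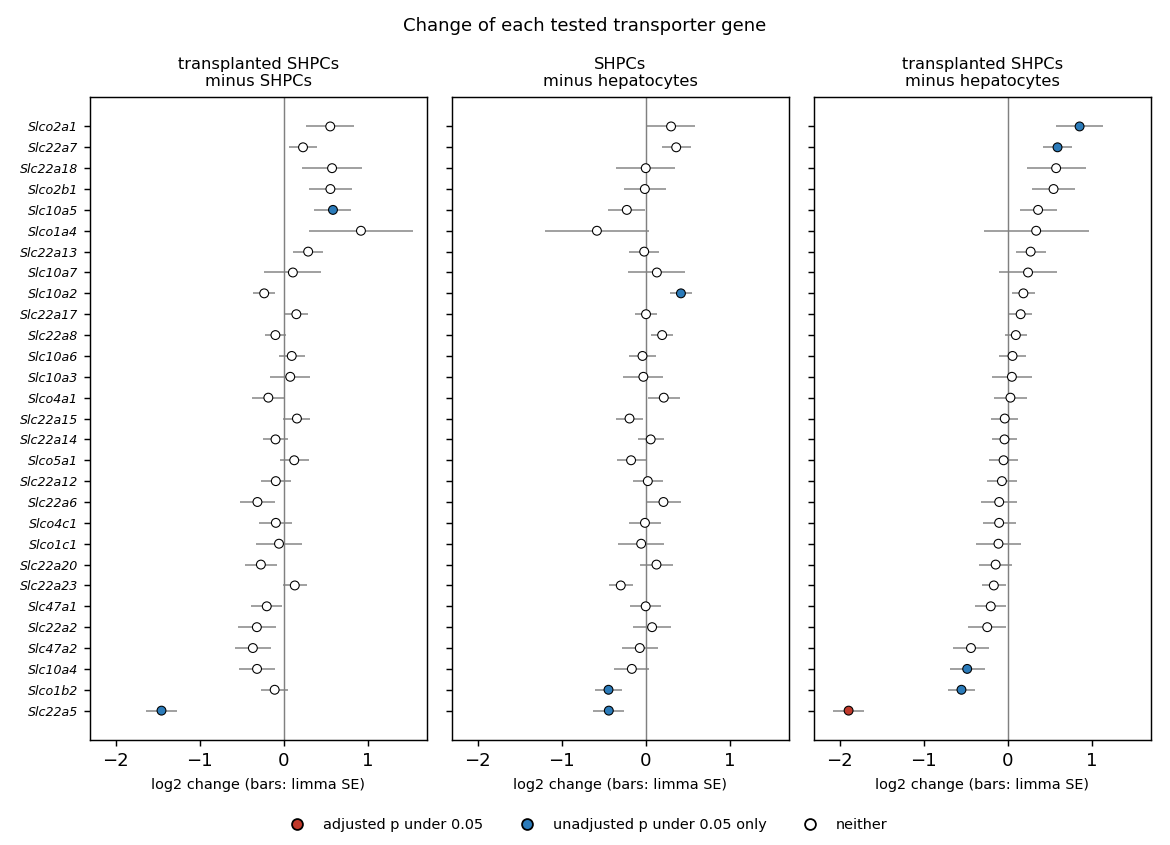
Log2 change of each of the 29 tested transporter genes (rows, ordered by the change in the right panel) in SHPCs of transplanted livers minus SHPCs, SHPCs minus hepatocytes, and SHPCs of transplanted livers minus hepatocytes; bars are limma's SE and the fill gives the side of the 0.05 threshold. Slc22a5 at −1.89 is the 1 member past the adjusted threshold, and most other members lie near 0.

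Of the 2 organic cation transporters, Slc22a3, a carrier of amines also called OCT3, was dim: it exceeded the 25th percentile of all probe sets on 0 of 9 arrays and lay between 2.07 and 2.68. Slc22a2, the kidney carrier OCT2, was tested and called in none (0) of the 3 comparisons.

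Slc22a7, which encodes the organic anion transporter OAT2, had the smallest unadjusted p of the tested anion carriers in both comparisons against hepatocytes. Its levels were 7.20, 7.31 and 7.38 in hepatocytes, 7.90, 7.28 and 7.80 in SHPCs and 7.81, 7.87 and 7.99 in SHPCs of transplanted livers. The transplanted arrays all lay above the hepatocyte arrays, and 2 of the 3 SHPC arrays did too, with SHPC array 2 at the hepatocyte level. The change against hepatocytes was 0.59 (SE 0.17, adjusted p = 0.195) for SHPCs of transplanted livers and 0.36 (SE 0.17, adjusted p = 1.00) for SHPCs, and between both kinds of SHPC it was 0.23 (SE 0.17, adjusted p = 0.724). Without SHPC array 2 and hepatocyte array 2 the first of these was 0.60 and passed (adjusted p = 0.0260), in a fit that called 3.64% of all tested genes, while the second was 0.56 and the third 0.04.

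Slc22a8, the organic anion transporter OAT3 of kidney, was at 4.53, 4.83 and 4.83 in hepatocytes, 4.82, 4.98 and 4.97 in SHPCs, and 4.83 on each of the 3 transplanted arrays, where the deposited values were equal. Its difference between SHPCs and hepatocytes was 0.20 (SE 0.13, adjusted p = 1.00). Slc22a13, a urate and nicotinate carrier, was at 2.61, 3.12 and 3.15, at 2.93, 2.78 and 3.12, and at 3.40, 3.12 and 3.18, in the same order of groups, which overlapped; its change between both kinds of SHPC was 0.29 (SE 0.18, adjusted p = 0.705). Of 10 anion carriers measured, 7 were tested and 0 were called in any comparison.

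Slc22a18, a carrier-like gene of an imprinted region, stood at 8.31, 7.31 and 8.12 in hepatocytes, 8.41, 7.09 and 8.25 in SHPCs and 8.57, 8.61 and 8.30 in SHPCs of transplanted livers. The low values were those of the arrays numbered 2. Its change was 0.58 (SE 0.35) against SHPCs (adjusted p = 0.705) and 0.58 (SE 0.35) against hepatocytes (adjusted p = 0.631). Without both those arrays the changes were 0.16 and 0.28. Slc22a23, an orphan member of the family, was at 8.10, 8.10 and 7.83 in hepatocytes, 7.85, 7.57 and 7.72 in SHPCs, and 7.80, 8.02 and 7.71 in SHPCs of transplanted livers, with overlap throughout and a change of −0.30 (SE 0.15, adjusted p = 1.00) between SHPCs and hepatocytes, or −0.18 without both outlying arrays. Slc22a15 lay between 4.63 and 5.28 on all 9 arrays, and none (0) of the 4 genes in this group was called.

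Slco1b2 encodes the hepatocyte uptake carrier OATP1B2 for bile acids and drugs. Its levels were 11.91, 11.62 and 11.88 in hepatocytes, 11.30, 11.13 and 11.66 in SHPCs and 11.35, 11.25 and 11.16 in SHPCs of transplanted livers. The hepatocyte arrays lay above all 3 transplanted arrays and overlapped with 1 SHPC array, number 3. The change was −0.55 (SE 0.16, adjusted p = 0.205) in SHPCs of transplanted livers and −0.44 (SE 0.16, adjusted p = 0.943) in SHPCs, each against hepatocytes. Without the arrays numbered 2 of hepatocytes and SHPCs, the first was −0.64 and passed (adjusted p = 0.0375).

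Slco2a1, the prostaglandin transporter, was at 9.06, 8.31 and 9.02 in hepatocytes, 9.63, 8.51 and 9.16 in SHPCs and 9.70, 9.68 and 9.58 in SHPCs of transplanted livers. All 3 transplanted arrays lay above the hepatocyte arrays, while SHPC array 1 reached their level. The change was 0.86 (SE 0.28, adjusted p = 0.281) against hepatocytes and 0.55 (SE 0.28, adjusted p = 0.705) against SHPCs, and that between SHPCs and hepatocytes was 0.30 (SE 0.28, adjusted p = 1.00). Without both outlying arrays the first was 0.61 (adjusted p = 0.0658) and the second 0.26. The Kupffer, stellate and cholangiocyte marker sums above were also higher on the transplanted arrays than on the SHPC arrays. All 6 Kupffer and all 6 stellate markers had positive changes there, and 3 of the 6 cholangiocyte markers did. The part of these markers in the result was not tested.

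Slco2b1, a carrier of steroid sulfates, was at 7.57, 6.86 and 7.46 in hepatocytes, 7.57, 6.73 and 7.57 in SHPCs and 7.90, 7.80 and 7.83 in SHPCs of transplanted livers. The transplanted arrays lay above all 6 others. Its change was 0.56 (SE 0.25, adjusted p = 0.684) against SHPCs and 0.55 (SE 0.25, adjusted p = 0.497) against hepatocytes, and without both outlying arrays 0.28 and 0.33. Slco1a4, which encodes OATP1A4 and is known for digoxin uptake, varied more: 9.14, 8.11 and 9.50 in hepatocytes, 9.01, 6.63 and 9.38 in SHPCs, and 9.10, 9.49 and 9.19 in SHPCs of transplanted livers. Its change of 0.92 (SE 0.62, adjusted p = 0.719) between both kinds of SHPC was 0.07 without both outlying arrays. Slco4a1 lay between 3.96 and 4.73. Of the 13 Slco genes, 8 were tested and 0 called in any comparison.

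Slc10a2 encodes ASBT, the bile salt carrier of ileum and of bile duct cells. Its levels were 3.58, 3.92 and 3.62 in hepatocytes, 4.16, 4.17 and 4.05 in SHPCs and 3.84, 3.92 and 3.92 in SHPCs of transplanted livers. All SHPC arrays lay above all hepatocyte and transplanted arrays. These levels are low: Slc10a2 exceeded the median of all probe sets on 0 of 9 arrays. The change between SHPCs and hepatocytes was 0.42 (SE 0.13, unadjusted p = 0.0102, adjusted p = 0.755), and between both kinds of SHPC it was −0.23 (SE 0.13, adjusted p = 0.705). The cholangiocyte marker sum was likewise higher in every SHPC array than in every hepatocyte array. On the transplanted arrays the lowest sum was 146.56, beside a highest SHPC sum of 146.48. Between both kinds of SHPC, 3 of the 6 cholangiocyte markers had positive and 3 negative changes. The part of these markers in the result was not tested.

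Slc10a5, an orphan carrier expressed in liver and kidney, was at 5.86, 5.31 and 5.97 in hepatocytes, 5.66, 5.06 and 5.75 in SHPCs and 6.06, 6.05 and 6.12 in SHPCs of transplanted livers. The transplanted arrays lay above all others, and its change against SHPCs was 0.59 (SE 0.22, unadjusted p = 0.0238, adjusted p = 0.619); against hepatocytes it was 0.36 (SE 0.22, adjusted p = 0.629). Without both outlying arrays these were 0.37 and 0.16. Slc10a4, an orphan carrier of synaptic vesicles, was at 4.15, 4.41 and 4.55, at 3.84, 4.63 and 4.15, and at 3.83, 3.74 and 4.10, in the same order. The hepatocyte arrays lay above the transplanted ones, with a change of −0.48 (SE 0.21, adjusted p = 0.466), and −0.32 (SE 0.21, adjusted p = 0.716) against SHPCs, which was −0.10 without both outlying arrays.

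Slc47a1, which encodes MATE1 for the export of organic cations into bile, lay between 4.02 and 4.64 on all 9 arrays, with the hepatocyte and SHPC arrays numbered 2 highest. Slc47a2 was at 4.32, 4.65 and 4.87 in hepatocytes, 4.31, 4.97 and 4.37 in SHPCs and 4.00, 4.17 and 4.37 in SHPCs of transplanted livers. These groups overlapped, with changes of −0.37 (SE 0.21, adjusted p = 0.705) against SHPCs and −0.44 (SE 0.21, adjusted p = 0.526) against hepatocytes. Without both outlying arrays the first was −0.16.

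The other 12 tested members lay between 2.53 and 6.22. Their changes ran from −0.32 to 0.15 between both kinds of SHPC, from −0.17 to 0.21 between SHPCs and hepatocytes, and from −0.24 to 0.24 between SHPCs of transplanted livers and hepatocytes. The smallest adjusted p among them was 0.720, 1.00 and 0.737. The 9 dim members, Slco6b1, Slco6c1, Slc22a22, Slc22a3, Slc22a25, Slc22a24, Slco1a6, Slco6d1 and Slco1a3, lay between 1.43 and 3.12 and were not tested.

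Bright and dim members deviated differently on the 2 arrays that stood apart. Of 8 tested members with a mean above the 75th percentile of all probe sets, 6 were lower on both arrays numbered 2 than on arrays 1 and 3 of the same group; of all tested genes that bright, 77.5% were. Of the 21 dimmer members 13 were higher on both, and of all such genes 51.0% were. Slco1a4 was lower by 2.56 on SHPC array 2 and by 1.21 on hepatocyte array 2. Slc22a5 was less affected, at −0.09 and −0.32. The members' median SD was 0.26 in hepatocytes and 0.30 in SHPCs, but 0.15 on the transplanted arrays, against 0.23, 0.25 and 0.11 over all tested genes.

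**Figure D3:**
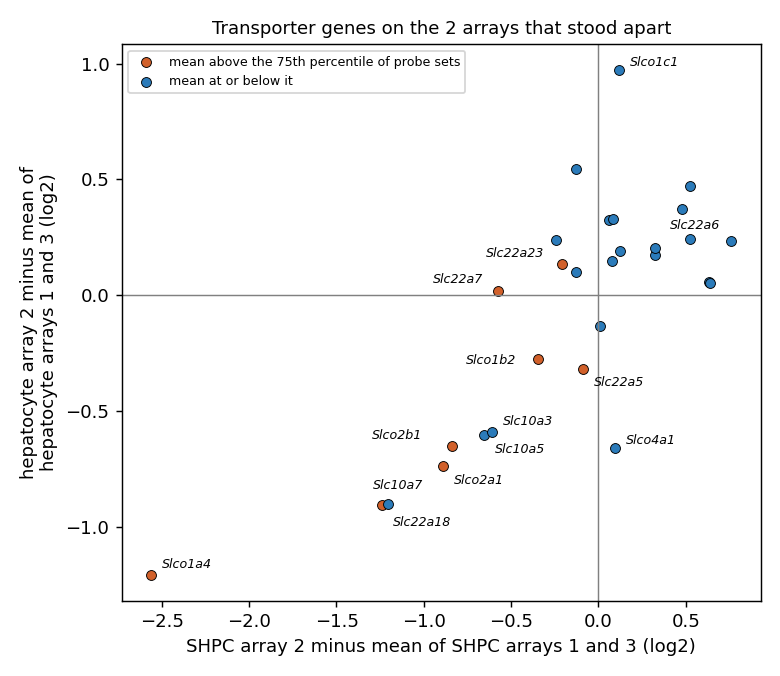
Each tested transporter gene on the arrays that stood apart: SHPC array 2 minus the mean of SHPC arrays 1 and 3 (x axis, log2) against hepatocyte array 2 minus the mean of hepatocyte arrays 1 and 3 (y axis, log2), coloured by mean level. Slco1a4 lies at −2.56 and −1.21, and 6 of the 8 brighter genes are below 0 on both axes.

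Some members are neighbours in the rat genome. In the RefSeq gene order of GRCr8, 18 of the 38 fell into 6 runs of 2 to 5 members. The longest holds Slco1c1, Slco1b2, Slco1a4, Slco1a3 and Slco1a6, of which 3 were tested. Slco1b2 was lower on the transplanted arrays than on the hepatocyte arrays while Slco1a4 overlapped with them. Slc22a5 was in no such run. Runs were sought among the 38 members alone, so a related neighbour that was not measured would not be seen. Carriers of 1 run can be similar in sequence, and signal shared between their probes was not tested.

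Carnitine is made in steps by Tmlhe, Aldh9a1 and Bbox1, is charged with fatty acids by Cpt1a or its muscle form Cpt1b, crosses the inner mitochondrial membrane through Slc25a20 and is released by Cpt2, while Crat and Crot handle short and medium chains. All 9 of these genes were tested. In SHPCs of transplanted livers against hepatocytes, 2 fell, Cpt1a and Crat, and 0 rose, where 1.18% of all tested genes were called and 0.317% were called lower; the changes of 6 were negative and of 3 positive, with a median of −0.66 against −0.00 over all tested genes. The list was chosen with earlier results of these data known and its count is a description.

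Cpt1a, the gate of mitochondrial fatty acid oxidation in liver, was at 9.85, 9.32 and 9.81 in hepatocytes, 9.52, 9.41 and 10.22 in SHPCs and 7.77, 7.99 and 8.15 in SHPCs of transplanted livers. As with Slc22a5, the 3 transplanted arrays lay below all 6 others. Cpt1a fell by 1.69 (SE 0.23, adjusted p = 0.0112) against hepatocytes, and its change of −1.75 (SE 0.23, adjusted p = 0.0752) against SHPCs did not pass. The call ended with median centring (adjusted p = 0.0604) and when hepatocyte array 1, hepatocyte array 3 or transplanted array 1, 2 or 3 was left out (adjusted p = 0.0573, 0.0594, 0.0788, 0.0648 and 0.0568). Without both outlying arrays it passed against hepatocytes and SHPCs alike (−1.86, adjusted p = 0.00455, and −1.90, adjusted p = 0.0265).

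Crat was at 7.60, 7.77 and 8.12 in hepatocytes, 7.38, 7.19 and 7.99 in SHPCs and 6.24, 6.89 and 6.51 in SHPCs of transplanted livers, again with the transplanted arrays lowest. It fell by 1.28 (SE 0.24, adjusted p = 0.0399) against hepatocytes, and its change against SHPCs was −0.98 (SE 0.24, adjusted p = 0.326). The call was lost under 10 of 22 alternatives, among them the loss of any hepatocyte array (adjusted p = 0.0801, 0.124 and 0.163), of SHPC array 1 (0.0560) or of any transplanted array (0.203, 0.0899 and 0.189).

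The other carnitine genes did not pass with all 9 arrays. Tmlhe, Aldh9a1 and Bbox1 of carnitine synthesis had positive changes between both kinds of SHPC, of 0.82 (adjusted p = 0.377), 0.64 (adjusted p = 0.669) and 0.57 (adjusted p = 0.725). Those of Cpt1b, Cpt2, Slc25a20 and Crot were −0.49 (adjusted p = 0.669), −0.72, −0.35 and −0.50. Aldh9a1, Bbox1, Cpt2, Slc25a20 and Crot were each lowest within hepatocytes and within SHPCs on the array numbered 2. Without both those arrays, the changes between both kinds of SHPC were 0.30 for Aldh9a1, 0.12 for Bbox1, −1.10 for Cpt2 and −0.65 for Slc25a20, and none (0) of these 4 passed. Against hepatocytes, that fit called 4 more carnitine genes: Cpt2 (−1.08, adjusted p = 0.00986), Slc25a20 (−0.89, adjusted p = 0.0248) and Crot (−0.72, adjusted p = 0.0340) as lower, and Aldh9a1 (0.43, adjusted p = 0.0480) as higher, where 3.64% of all tested genes were called.

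**Figure D4:**
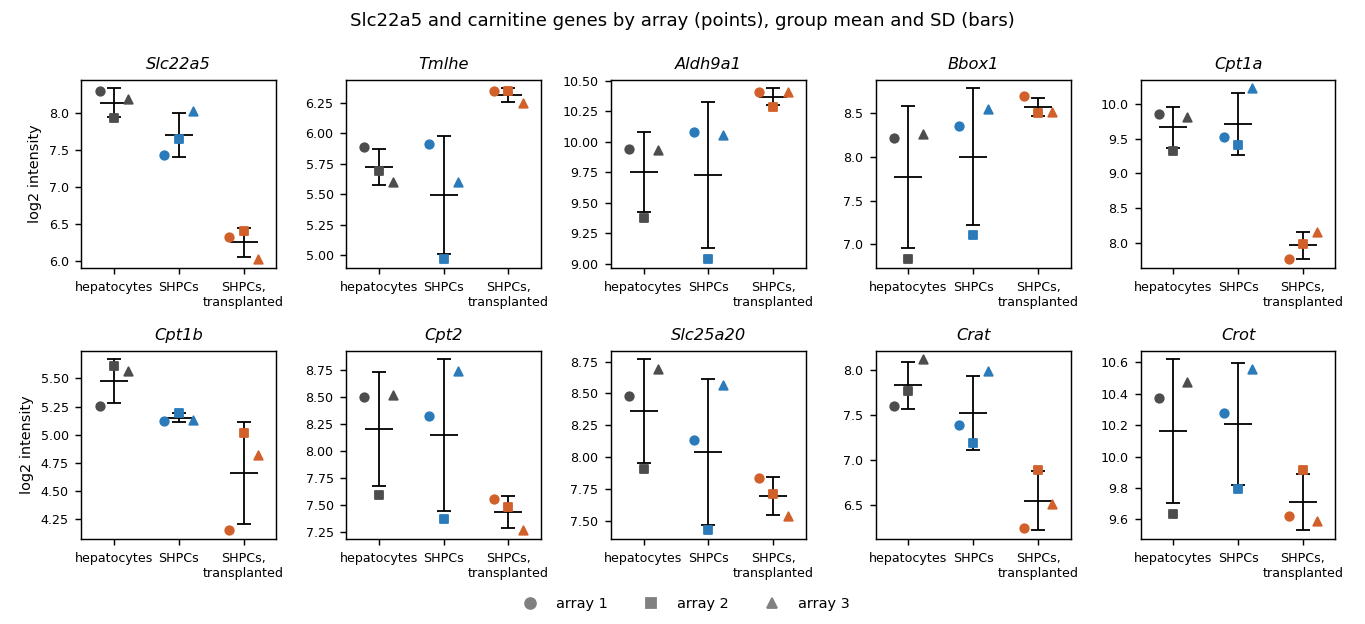
Log2 intensity (y axis, own range per panel) of Slc22a5 and the 9 genes of carnitine synthesis and shuttling in the hepatocyte, SHPC and transplanted SHPC groups; points are single arrays, the long bar is the group mean and the whiskers the SD. Slc22a5, Cpt1a and Crat are lowest on the 3 transplanted arrays, and Tmlhe, Aldh9a1 and Bbox1 have their highest group mean there.

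Of 11 genes listed for bile acid and conjugate transport, 9 were measured and limma called 0 of them in any comparison with all 9 arrays; 2, 1 and 4 had an unadjusted p under 0.05 in SHPCs of transplanted livers against SHPCs, in SHPCs against hepatocytes, and in SHPCs of transplanted livers against hepatocytes, where 7.35%, 4.12% and 10.4% of all tested genes did. Abcb11 and Abcc2 were not analysed here. Slc10a1, the sodium-dependent bile salt uptake carrier NTCP, was at 10.002, 8.82 and 9.58 in hepatocytes, 10.49, 8.98 and 10.05 in SHPCs and 10.58, 10.68 and 10.64 in SHPCs of transplanted livers. The transplanted arrays lay above all others, with changes of 0.79 (SE 0.38, adjusted p = 0.697) against SHPCs and 1.16 (SE 0.38, adjusted p = 0.267) against hepatocytes. Without both outlying arrays these were 0.36 (adjusted p = 0.525) and 0.84, and the second passed (adjusted p = 0.0370). Slco1b2, which also takes up bile acids, had a change of the other sign against hepatocytes.

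Among the exporters, Abcb4, the canalicular phospholipid floppase, had changes of −0.61 (SE 0.17, adjusted p = 0.401) against SHPCs and −0.66 (SE 0.17, adjusted p = 0.129) against hepatocytes. Abcg2, a canalicular exporter of drugs and urate, had changes of 1.14 (SE 0.34, adjusted p = 0.460) and 1.28 (SE 0.34, adjusted p = 0.150). Its levels were low, at 3.58, 2.84 and 3.78 in hepatocytes, 3.93, 2.76 and 3.91 in SHPCs and 4.76, 4.90 and 4.37 in SHPCs of transplanted livers. It exceeded the 25th percentile of all probe sets on 7 of 9 arrays and the median on 3. Without both outlying arrays the change of Abcg2 was 0.76 against SHPCs (adjusted p = 0.163) and 0.997 against hepatocytes, which passed (adjusted p = 0.0188), as did those of Abcb4 (−0.77, adjusted p = 0.0349) and Abcc3 (−1.02, adjusted p = 0.0177) against hepatocytes. Abcc3, a basolateral exporter of conjugates, was at 8.26, 7.70 and 7.95 in hepatocytes and 6.87, 6.31 and 7.16 in SHPCs, with no overlap. Its change of −1.19 (SE 0.23) did not pass without a block (adjusted p = 0.186). With the array number as a block between these groups, a pairing that was assumed, it passed (adjusted p = 0.00854). That fit called 0.931% of all tested genes and 0 of the 29 transporter members.

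Nuclear receptors and other factors that govern these transporters were listed as 13 genes, of which 12 were tested. In SHPCs of transplanted livers against hepatocytes 2 fell and 0 rose, beside 1.18% of all tested genes called and 0.317% called lower. Nr1i3 encodes the constitutive androstane receptor CAR, a regulator of drug metabolism and transport. It was at 7.97, 7.31 and 7.97 in hepatocytes, 5.68, 5.84 and 6.76 in SHPCs, and 4.98, 5.28 and 5.14 in SHPCs of transplanted livers, and all 3 groups lay apart. Nr1i3 fell by 2.62 (SE 0.28, adjusted p = 0.00374) in SHPCs of transplanted livers against hepatocytes. Its changes in SHPCs against hepatocytes, −1.66 (SE 0.28, adjusted p = 0.114, or 0.00518 with the array number as a block), and between both kinds of SHPC, −0.96 (SE 0.28, adjusted p = 0.460), did not pass without the block.

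Ahr, the aryl hydrocarbon receptor, was at 8.76, 8.52 and 8.56 in hepatocytes, 7.94, 7.25 and 8.02 in SHPCs and 7.65, 7.51 and 7.30 in SHPCs of transplanted livers. It fell by 1.13 (SE 0.21, adjusted p = 0.0358) in the last group against hepatocytes. The call was lost under 9 of 22 alternatives, among them the loss of any hepatocyte array (adjusted p = 0.113, 0.0947 and 0.120) or any transplanted array (0.124, 0.142 and 0.189). The others were median centring (0.203), testing of all probe sets (0.0943) and eBayes with a trend and robust setting (0.0530). In SHPCs against hepatocytes the change of Ahr was −0.88 (adjusted p = 0.413, or 0.0354 with the block). Onecut1, also called HNF6, had a change of −1.23 (SE 0.26, adjusted p = 0.224) between both kinds of SHPC. Ppara, the receptor that drives many fatty acid oxidation genes, lay between 7.15 and 7.75 on all 9 arrays, with group means of 7.31, 7.42 and 7.42.

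Of 4 scaffold genes listed, 2 were measured and 0 called. Pdzk1, whose protein holds OCTN2 and OATPs at the membrane, was at 6.95, 6.85 and 7.03 in hepatocytes, 6.97, 6.58 and 7.27 in SHPCs and 6.82, 6.51 and 6.53 in SHPCs of transplanted livers. Its changes were −0.32 (SE 0.18, adjusted p = 0.705) against SHPCs and −0.33 (SE 0.18, adjusted p = 0.601) against hepatocytes, and the first was −0.50 (adjusted p = 0.248) without both outlying arrays.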

How the data were processed

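Arrays were hybridised with RNA of laser-captured cells, 3 per group, and the authors deposited linear intensity values for 36685 probe sets per array, made with RMA (version not given) per the submitters' processing notes. The log2 of each deposited intensity was taken here. Probe sets with a single symbol in the platform annotation (18511; 575 had several symbols and 17599 were unnamed) gave 18166 genes, each by its brightest probe set. Genes above the array's 25th percentile on at least 3 of 9 arrays were tested in limma 3.58.1 (R 4.3.3), in 1 fit of 3 group means, with eBayes and Benjamini-Hochberg adjustment over all 15793 genes and a threshold of 0.05. The fit was tested on simulated data with independent noise on every array, which does not mimic the shared deviations of the outlying arrays. Each member had 1 probe set, and a further 1 with several symbols was left out. Signal was not compared between probe sets, and the number of arrays limits the precision.

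The numbers in the titles were checked as a pairing. Over all genes, the deviations of same-numbered hepatocyte and SHPC arrays correlated at 0.53, 0.70 and 0.34, every pair above 0.1. On that rule the number was taken to pair these groups. Hepatocyte array 1 also correlated at 0.48 with SHPC array 3, and hepatocyte array 3 at 0.24 with SHPC array 1. The rule therefore passes with arrays 1 and 3 exchanged too, and it cannot show which arrays belong together. Results with the array number as a block rest on an assumed pairing. With the transplanted arrays the correlations were −0.09 to 0.00, and no pairing was taken. The members, partner lists and tests were chosen with earlier results of these data known. Named members were those past the threshold, the 8 with the smallest p in each comparison, the 8 brightest and some always named; partner genes were up to 2 per list and comparison, with Slc10a1 and Cpt1a. The remaining carnitine genes, Ahr and Ppara were named after their values were seen. Alternatives covered scaling, filters, blocks, weights and left-out arrays; a block for hepatocytes and SHPCs alone was added after seeing the data.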

Additional observations from a re-analysis of the deposited data

How the results depend on the processing

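Slc22a5 in SHPCs of transplanted livers against hepatocytes passed under all 22 alternatives (log2 change −2.03 to −1.78, adjusted p 2.02e-05 to 0.0258). Against SHPCs its change kept its sign in all 22 (adjusted p 0.00130 to 0.415). It was the 1 member called with renewed quantile normalization, cyclic loess, a replicate block, a random replicate block (correlation 0.16), array quality weights and without both outlying arrays. Those settings called 10 to 259 of all tested genes. Both replicate blocks used the array number in every group, although no pairing was taken with the transplanted arrays. Leaving out single arrays gave 0 to 1 members, in fits that called 0 to 24 of all tested genes. All other alternatives gave 0. In SHPCs against hepatocytes array weights called 2 members, Slc22a7 and Slc10a2, and the replicate block of these groups called 0 while raising the calls over all genes from 10 to 147. In SHPCs of transplanted livers against hepatocytes the count of members was 8 with array weights and 1 to 2 with single arrays left out. Without both outlying arrays it was 3, in a fit that called 3.64% of all tested genes. With cyclic loess it was also 3, namely Slc22a5, Slco1b2 and Slco2a1. The shares over all genes are not given for cyclic loess or for single arrays left out. Those counts are therefore no result about the members. Array weights raised the calls over all genes in each comparison, as given below. Array weights gave hepatocyte array 3 a weight of 4.03 and SHPC array 2 one of 0.13.

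The members' median change between both kinds of SHPC was 0.0472 with median centring, 0.0149 with quantile normalization, 0.0224 with cyclic loess, −0.0878 without a filter, 0.103 with a filter at the 50th percentile, −0.0261 without both outlying arrays and −0.0756 to 0.0313 with single arrays left out. That of SHPCs against hepatocytes was −0.0818 to 0.0594 with single arrays left out. Against hepatocytes, SHPCs of transplanted livers had 0.0584 with centring, 0.0732 with quantile normalization, 0.0679 with cyclic loess, 0.0545 with the stricter filter and −0.0709 to 0.0647 with single arrays left out. Median centring shifted all genes by 0.10 between both kinds of SHPC. Over all 15793 tested genes the calls also depended on the setting: array weights called 259, 375 and 2685, in the order of the comparisons above, against 1, 10 and 186.

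Of 1238 values of the 56 named changes under alternatives, 0 turned sign, 25 lost a call (Cpt1a, Crat and Ahr) and 69 gained one, 27 of these with array weights. The 56 do not cover every change of the named members, and some others turned sign without both outlying arrays. Slco1a4 went from 0.34 to −0.06 in SHPCs of transplanted livers against hepatocytes. Slco4a1 went from 0.22 to −0.04 in SHPCs against hepatocytes. Between SHPCs and hepatocytes, the block changed no call of a named gene other than those of Nr1i3, Abcc3 and Ahr. The cause of these changes was not tested.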
